A study of Mus musculus with 64 samples.

Results

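The 10 genes described here mark brown adipocytes or take part in their heat production: *Ebf2*, *Prdm16*, *Zic1*, *Lhx8*, *Ucp1*, *Cidea*, *Otop1*, *Elovl3*, *Dio2* and *Ppargc1a*. They were taken by name from a table of 52636 genes, in which all 10 were listed and all 10 passed the filter on low counts that left 20249 genes for testing. Their RNA was counted in 2 fat depots, the brown one (BAT) and the white one at the epididymis (eWAT), of WT and FANKO mice, male young adults on chow at room temperature. In both genotypes an exon of *Nampt*, the gene of the enzyme that limits NAD+ salvage, could be cut out of the *Nampt* tm1Jtree allele. FANKO mice carried in addition Adiponectin-Cre, which acts in adipocytes only, so that other cells of the depots kept the gene. WT mice were their littermates without Cre. Tissue was taken at ZT6, ZT10, ZT18 and ZT22, in hours after lights on, from 4 mice per depot, genotype and time point, giving 16 groups, 64 libraries and 16 libraries per depot and genotype.

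Brown adipocytes burn fatty acids and release the energy as heat, because UCP1 lets protons return across the inner mitochondrial membrane without making ATP. Their fate is set by transcription factors such as EBF2 and PRDM16, and noradrenaline from sympathetic nerves raises cAMP and turns on the heat program through β-adrenergic receptors. ZIC1 and LHX8 are transcription factors that mark the classical interscapular depot and are not made by the beige cells of white depots. Epididymal fat of mice at room temperature is a white depot with few cells of this kind.

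Counts per library ranged from 6117343 to 30544847. Levels are given as CPM, a gene's share of the library's counts, on the scale of edgeR's TMM factors, and differences as log2 fold changes with their standard error (SE). *Nampt* had a median of 702 CPM in WT BAT and 143 CPM in FANKO BAT, without overlap, and of 149 and 114 CPM in WT and FANKO eWAT, where the ranges overlapped. The 10 adipocyte markers, such as *Adipoq* and *Plin1*, were detected in both depots of both genotypes. Their summed level in BAT ran from 14929 to 21944 CPM in WT and from 7602 to 13111 CPM in FANKO mice, and all 10 were lower in FANKO BAT. For this and the other marker counts here, the shares over all genes tested were 33.9% lower and 33.1% higher in FANKO BAT. In FANKO eWAT they were 22.8% lower and 27.6% higher. The sum of 9 macrophage markers rose from a median of 129 CPM to 951 CPM in BAT, where 8 of the 9 were higher, and that of 8 progenitor and fibroblast markers from 761 to 1924 CPM, all 8 higher. That of 8 lymphocyte markers rose from 3.47 to 72.0 CPM, all 8 higher, and that of 6 endothelial markers went from 536 to 389 CPM, with 4 of the 6 lower. The share of counts from the mitochondrial genome had medians of 24.6% in WT and 14.7% in FANKO BAT. The part of these shifts in the differences described below was not tested, beyond the scalings given there. Skeletal muscle markers summed to more than 200 CPM in 7 BAT libraries, 4 of WT and 3 of FANKO mice. In eWAT the adipocyte markers had medians of 24927 CPM in WT and 23514 CPM in FANKO mice, with 4 of the 10 lower and 2 higher. Other sums shifted there. That of epididymis and mesothelium markers went from a median of 278 to 139 CPM, with 4 of 9 tested lower. That of progenitor and fibroblast markers went from 3482 to 1851 CPM, and the mitochondrial share from 6.55% to 10.7%. The part of these shifts in the eWAT differences was not tested. In such bulk tissue, fewer brown adipocytes and less RNA of a gene in each of them cannot be told apart.

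The first comparison asked which of the genes set BAT apart from eWAT in WT mice. All 10 were higher in BAT, where 32.7% of all genes tested were. The genes were listed for their part in brown fat, so this count is no test of the list. *Zic1* and *Lhx8* also passed the filter on low counts through BAT only. *Ucp1*, the uncoupling protein itself, ranged from 1930 to 7370 CPM in WT BAT, with a median of 4305 CPM, and from 0 to 2.41 CPM in WT eWAT, with a median of 0.213 CPM. *Cidea*, a protein that enlarges lipid droplets, had a median of 2094 CPM (1605 to 2362) in WT BAT against 4.13 CPM (2.10 to 10.8) in WT eWAT. These depots did not overlap for either gene. The log2 difference between the depots was 13.36 ± 0.41 for *Ucp1* and 8.71 ± 0.19 for *Cidea* (SE; adjusted p = 3.08e-37 and 4.04e-44, edgeR). *Ebf2*, which acts early in brown fat commitment and is also made by precursor cells, differed least, with a median of 124 CPM (101 to 176) in WT BAT and 46.4 CPM (38.7 to 60.0) in WT eWAT, a log2 difference of 1.40 ± 0.06 (adjusted p = 3.58e-31, edgeR).

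*Zic1* and *Lhx8* had BAT levels that were low but present in every library. *Zic1* had between 6.94 and 19.1 CPM in WT BAT and 2 counts in all 16 WT eWAT libraries together, against 1854 counts in WT BAT, a ratio of 1496 at equal depth (95% interval 413 to 12359, exact, counting error only). *Lhx8* had between 0.502 and 6.73 CPM in WT BAT and 1 count in WT eWAT against 476 in WT BAT, a ratio of 768 (95% interval 137 to 30397). In FANKO eWAT both genes gave 1 count each in 16 libraries, so no genotype difference of either could be measured in eWAT.

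Per kilobase of exon, the order in WT BAT by median CPM per kilobase was *Ucp1* (2632), *Cidea* (1878), *Otop1* (89.8), *Elovl3* (63.0), *Ebf2* (17.8), *Ppargc1a* (9.57), *Dio2* (7.96), *Prdm16* (4.05), *Zic1* (1.57) and *Lhx8* (0.885). The libraries of neighbours in this order overlapped except between *Cidea* and *Otop1* and between *Elovl3* and *Ebf2*. In WT eWAT the highest of the 10 on the same scale were *Ebf2* (6.69), *Cidea* (3.71) and *Ppargc1a* (1.02), and *Ucp1* (0.130) came eighth.

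**Figure D1:**
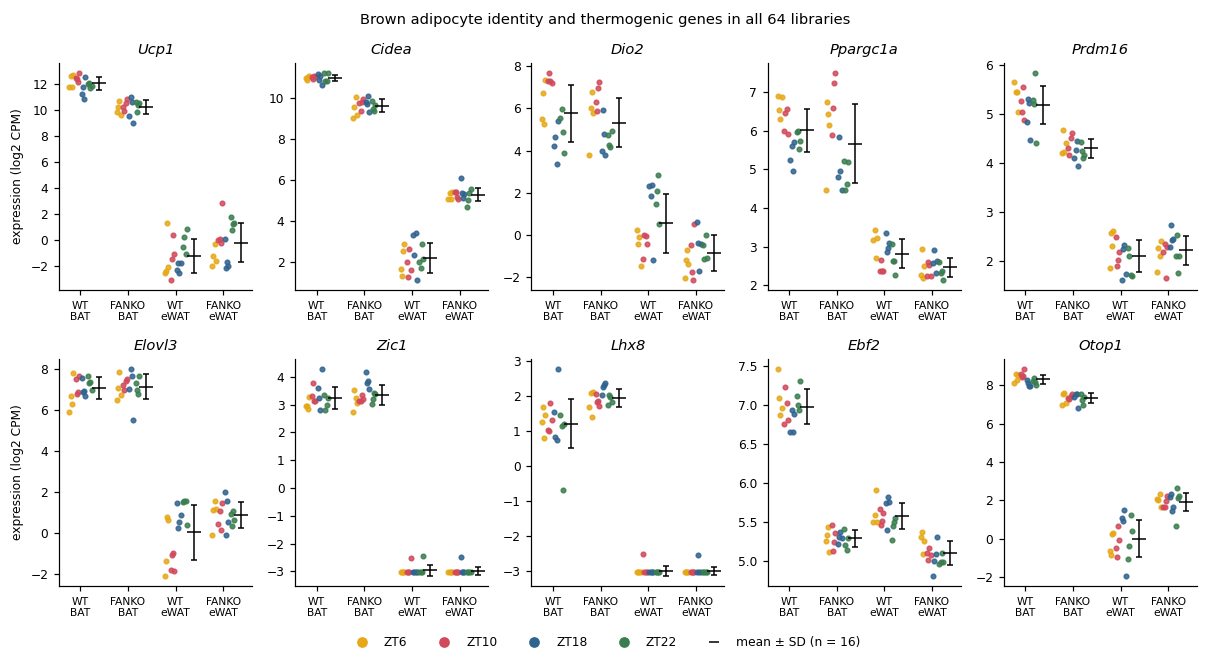
Level of each gene in every library (y axis, log2 CPM with a prior count of 2; x axis, genotype and depot; colour, time point; black bars, mean ± SD of 16 libraries). *Ucp1*, *Cidea*, *Ebf2* and *Otop1* sit lower in FANKO than in WT BAT, *Cidea* and *Otop1* sit higher in FANKO than in WT eWAT, and *Zic1* and *Lhx8* are at the floor in eWAT.

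The next question was how the genes responded to loss of *Nampt* in BAT. Over the 4 time points, 5 of the 10 fell in FANKO BAT (*Ucp1*, *Ebf2*, *Cidea*, *Otop1* and *Prdm16*), 1 rose (*Lhx8*) and 4 did not pass the test. Of all genes tested, 33.9% were lower and 33.1% higher, so a change as such was common in this depot. The median log2 difference of the 10 genes was -0.68 and that of all genes 9.7e-05.

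Both regulators of brown fat identity fell. *Ebf2* went from a median of 124 CPM (101 to 176) in WT BAT to 39.4 CPM (34.5 to 44.1) in FANKO BAT, and every FANKO library was below every WT library. Its log2 difference was -1.70 ± 0.06 (adjusted p = 1.37e-34, edgeR). *Prdm16*, a cofactor that drives brown against muscle fate, went from 37.8 CPM (21.2 to 56.9) to 19.1 CPM (15.4 to 25.6), with 11 of 16 FANKO libraries below all of WT and a log2 difference of -0.91 ± 0.10 (adjusted p = 1.12e-12, edgeR). *Ebf2* shares 424 bases of exon with a gene on the opposite strand, *Prdm16* 109, *Dio2* 100, *Zic1* 60 and *Elovl3* 10 bases, and the strand setting of the counting is not given in the sources used here.

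The factors that mark the anatomical depot were not among the genes that fell. *Zic1* had a median of 8.94 CPM (6.94 to 19.1) in WT BAT and 9.65 CPM (6.54 to 18.1) in FANKO BAT, a log2 difference of 0.11 ± 0.11 (adjusted p = 0.364, edgeR). *Lhx8* had 2.24 CPM (0.502 to 6.73) in WT BAT and 3.89 CPM (2.53 to 5.12) in FANKO BAT, and rose by 0.64 ± 0.17 log2 (adjusted p = 0.00121, edgeR), although the ranges overlapped in all 16 FANKO libraries. Without replicate number 1 or 2 of every group the adjusted p of *Lhx8* was 0.0114 and 0.0163.

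Of the effectors, *Ucp1* had 4305 CPM (1930 to 7370) in WT BAT and 1306 CPM (523 to 2061) in FANKO BAT, and 15 of 16 FANKO libraries were below all of WT. Its log2 difference was -1.80 ± 0.23 (adjusted p = 6.58e-10, edgeR), which left FANKO BAT with a fitted 0.288 of the WT level. *Cidea* went from 2094 CPM (1605 to 2362) to 825 CPM (531 to 1110), and *Otop1*, a proton channel found in brown fat, from 309 CPM (247 to 458) to 168 CPM (114 to 196). For both, every FANKO library was below every WT library. The log2 differences were -1.35 ± 0.14 and -0.97 ± 0.12 (adjusted p = 1.72e-13 and 1.24e-10, edgeR). *Elovl3*, an elongase of very long fatty acids that brown fat induces in the cold, behaved otherwise, with 124 CPM (59.7 to 224) in WT BAT and 142 CPM (46.0 to 257) in FANKO BAT and a log2 difference of 0.09 ± 0.17 (adjusted p = 0.636, edgeR).

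*Dio2* and *Ppargc1a*, which noradrenaline induces fast, spread widely within each genotype. *Dio2*, the deiodinase that makes active thyroid hormone in the cell, had 46.3 CPM (10.1 to 202) in WT BAT and 42.4 CPM (13.8 to 154) in FANKO BAT, and *Ppargc1a*, a coactivator of mitochondrial biogenesis, had 63.1 CPM (30.7 to 120) and 47.5 CPM (21.8 to 180). Their log2 differences were -0.45 ± 0.24 and -0.25 ± 0.14 (adjusted p = 0.0812 and 0.104, edgeR). Neither call passed, and both ranges overlapped.

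These calls moved with the scaling. When libraries were scaled to the summed counts of the 10 adipocyte markers, which shifted the median of all genes by 0.78 log2 in BAT, *Ucp1* (-1.02), *Ebf2* (-0.91) and *Cidea* (-0.58) were still lower in FANKO BAT. On that scale *Otop1* (-0.20, adjusted p = 0.132, edgeR) and *Prdm16* (-0.14, adjusted p = 0.255, edgeR) no longer passed, and *Elovl3*, *Zic1*, *Lhx8* and *Ppargc1a* were higher, by 0.85, 0.91, 1.46 and 0.51 log2. The 10 markers themselves fell unequally in BAT on the TMM scale, from -0.49 log2 for *Cidec* to -1.34 log2 for *Adipoq*. The values on the marker scale thus depend on which markers carry the sum, and scaling to single markers was not tested. Scaling by library size alone shifted the median of all genes by 0.58 log2, left the same 5 genes lower and put *Elovl3*, *Zic1* and *Lhx8* higher. Of the genes called in BAT, 50.6% were lower on the TMM scale, 15.1% by library size and 9.98% by adipocyte markers. Without the 7 BAT libraries rich in muscle markers, the same 5 genes were lower and *Lhx8* was higher.

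In eWAT 2 of the 10 were higher in FANKO mice (*Cidea* and *Otop1*) and 2 lower (*Dio2* and *Ebf2*). Among the 10, *Zic1* and *Lhx8* had too few counts there to pass. Of all genes tested, 27.6% were higher and 22.8% lower there, so that 45.2% of the calls were lower, against 78.2% when libraries were scaled by size alone. *Cidea* went from 4.13 CPM (2.10 to 10.8) in WT eWAT to 40.6 CPM (25.5 to 67.8) in FANKO eWAT, and every FANKO library was above every WT library. Its log2 difference was 3.03 ± 0.16, a fitted 8.16-fold (adjusted p = 2.27e-24, edgeR). *Otop1* went from 0.954 CPM (0.140 to 2.65) to 4.04 CPM (1.44 to 6.10), with 14 of 16 FANKO libraries above all of WT and a log2 difference of 1.95 ± 0.19 (adjusted p = 4.33e-13, edgeR). FANKO eWAT still had 20.2-fold less *Cidea* and 42.0-fold less *Otop1* than FANKO BAT.

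*Ucp1* in eWAT was near the limit of detection, with a median of 0.213 CPM (0 to 2.41) in WT and 0.826 CPM (0.10 to 7.10) in FANKO mice. The 16 WT libraries together held 144 *Ucp1* counts and the 16 FANKO libraries 274. The log2 difference of 1.31 ± 0.49 did not pass (adjusted p = 0.0185, edgeR). It passed without any 1 of 3 libraries, with an adjusted p (edgeR) of 0.00488 without WT eWAT ZT10 replicate 3, 0.0054 without WT eWAT ZT6 replicate 3 and 0.00963 without FANKO eWAT ZT18 replicate 2. *Elovl3* likewise had 1.26 CPM (0.113 to 2.85) and 1.88 CPM (0.804 to 3.90), a log2 difference of 0.92 ± 0.33 (adjusted p = 0.0134, edgeR). It passed without any 1 of 7 libraries, which were WT ZT18 replicate 1, WT ZT6 replicates 3 and 4, FANKO ZT10 replicate 3, FANKO ZT18 replicate 2 and FANKO ZT6 replicate 1 of eWAT and FANKO ZT18 replicate 4 of BAT, with adjusted p from 0.00575 to 0.00979 (edgeR).

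*Ebf2* was lower in eWAT too, at 46.4 CPM (38.7 to 60.0) in WT and 34.2 CPM (28.1 to 41.4) in FANKO mice, with 13 of 16 FANKO libraries below all of WT. Its log2 difference was -0.48 ± 0.06 (adjusted p = 1.04e-10, edgeR). In the same libraries the progenitor and fibroblast markers fell from a median sum of 3482 to 1851 CPM, with 7 of 8 lower, and their part in the *Ebf2* difference was not tested. *Dio2* had 0.976 CPM (0.237 to 7.03) in WT eWAT and 0.429 CPM (0.109 to 1.40) in FANKO eWAT, a log2 difference of -1.72 ± 0.53 (adjusted p = 0.00459, edgeR) with overlapping ranges. Without replicate number 2 or 3 of every group its adjusted p was 0.0468 and 0.0302, and limma-voom gave 0.108. *Prdm16* (4.31 and 4.75 CPM) and *Ppargc1a* (6.72 and 5.26 CPM) had log2 differences of 0.12 ± 0.11 and -0.40 ± 0.17 (adjusted p = 0.384 and 0.0389, edgeR). *Ppargc1a* was called lower in eWAT by library size (-0.65, adjusted p = 0.000663), by DESeq2 (adjusted p = 0.00681), in separate fits for each depot (0.0043) and without the 7 muscle-rich BAT libraries (0.00623).

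In the FANKO eWAT libraries that held 10884 *Cidea* and 1072 *Otop1* counts in total, *Zic1* and *Lhx8* held 1 count each. The 2 tested beige markers, *Tmem26* and *Tnfrsf9*, had adjusted p of 0.745 and 0.0163 in eWAT (edgeR), and both rose in BAT, by 5.79 and 3.54 log2. In BAT *Tmem26* went from 0.0529 ± 0.0811 to 3.15 ± 1.26 CPM and *Tnfrsf9* from 0.419 ± 0.220 to 5.07 ± 2.04 CPM (SD, n = 16). The WT mean of *Tmem26* was below 3 counts, which came to 0.150 CPM or more in WT BAT. Both rises stood beside that of the lymphocyte markers given above, whose part in them was not tested.

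**Figure D2:**
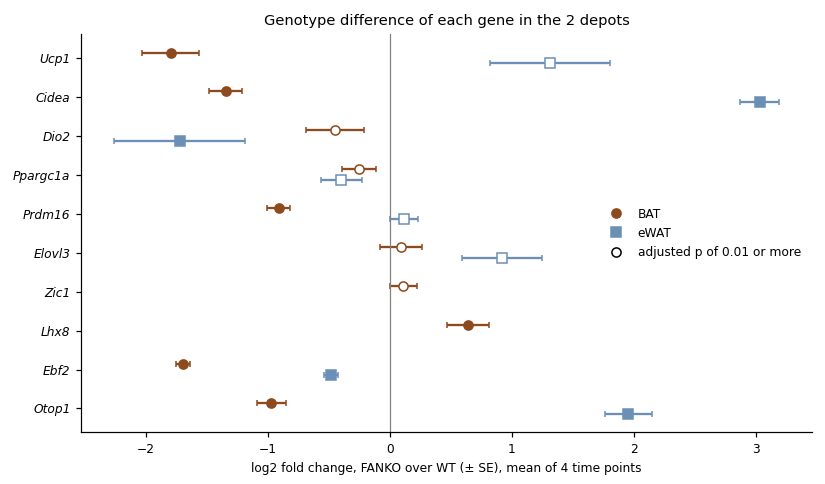
Log2 fold change of FANKO over WT mice (x axis, ± SE) for each gene in BAT (brown circles) and eWAT (blue squares), filled where the adjusted p was below 0.01. *Cidea* and *Otop1* lie at -1.35 and -0.97 in BAT and at 3.03 and 1.95 in eWAT, and *Zic1* and *Lhx8* are not drawn for eWAT because they had 1 or 2 counts in a genotype.

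Whether the genotype difference itself depended on the depot was tested in the same model. It did for 5 of the 10, *Ucp1*, *Cidea*, *Otop1*, *Ebf2* and *Prdm16*, as for 64.3% of all genes tested. Among the 10, *Zic1* and *Lhx8* had too few counts in eWAT to be judged. The difference in BAT minus that in eWAT was -4.37 ± 0.21 log2 for *Cidea*, -3.10 ± 0.54 for *Ucp1*, -2.92 ± 0.23 for *Otop1*, -1.22 ± 0.08 for *Ebf2* and -1.03 ± 0.15 for *Prdm16* (adjusted p from 5.13e-27 to 8.53e-07, edgeR). *Prdm16* did not pass when libraries were scaled by size alone (-0.18, adjusted p = 0.239, edgeR) or to adipocyte markers (-0.29, adjusted p = 0.119). On these 2 scales *Dio2* (2.07 and 1.95) and *Ppargc1a* (0.96 and 0.87) passed, their genotype differences in BAT lying above those in eWAT. The scales moved all genes, however. The median of all genes for the difference in BAT minus that in eWAT was 0.04 log2 on the TMM scale. It was 0.88 by library size and 0.79 by adipocyte markers, close to the values of *Ppargc1a*. Of 20249 genes, 15247 and 14714 were called on these 2 scales. The choice of the genes makes the next count no test of the list. In FANKO mice all 10 genes remained higher in BAT than in eWAT, where 28.1% of all genes were. The gap of *Cidea* was 4.34 ± 0.15 log2 there, against 8.71 ± 0.19 in WT mice. That of *Ebf2* was 0.19 ± 0.06 (adjusted p = 0.00334, edgeR), against 1.40 ± 0.06, and without replicate number 1 or 2 its adjusted p was 0.0406 and 0.0104.

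The last question was whether the genes changed over the day and whether loss of *Nampt* altered that. Rhythm was tested as a cosine and a sine of 24 h together. In WT BAT 2 of the 10, *Dio2* and *Ppargc1a*, passed (13.9% of all genes did), and in FANKO BAT the same 2 passed (2.84% of all genes). *Dio2* in WT BAT had 45.7, 106, 38.2 and 161 CPM in the 4 libraries of ZT6 and 158, 202, 159 and 148 CPM in those of ZT10. It had 18.5, 24.7, 10.1 and 42.4 CPM at ZT18 and 46.9, 63.5, 29.1 and 14.8 CPM at ZT22. All ZT10 libraries of *Dio2* thus lay above all of ZT18 and ZT22. In FANKO BAT *Dio2* had 13.8, 64.2, 109 and 54.6 CPM at ZT6, 78.7, 58.1, 124 and 154 CPM at ZT10, 15.8, 59.8, 27.8 and 14 CPM at ZT18 and 26.4, 19.2, 17.9 and 30.1 CPM at ZT22. The highest time-point mean exceeded the lowest by 2.97 ± 0.44 log2 in WT and 2.07 ± 0.36 log2 in FANKO BAT (adjusted p of the rhythm 2.73e-05 and 0.00168, edgeR). The rhythm of *Dio2* in FANKO BAT no longer passed without replicate number 2 (0.0105), 3 (0.0256) or 4 (0.0312) of every group, or in separate fits for each depot (0.0172).

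*Ppargc1a* followed a like course. Its means in WT BAT were 102 ± 19.7 CPM at ZT6, 76.6 ± 17.0 at ZT10, 42.4 ± 9.86 at ZT18 and 56.3 ± 8.31 at ZT22 (SD, n = 4 each), and in FANKO BAT 71.8 ± 36.5, 122 ± 54.4, 34.6 ± 15.7 and 30.2 ± 8.01 CPM. The span from the lowest to the highest mean was 1.28 ± 0.23 log2 in WT and 1.92 ± 0.41 log2 in FANKO BAT (adjusted p of the rhythm 0.000964 and 3.34e-07, edgeR). That of *Ppargc1a* in WT BAT no longer passed without replicate number 3 (0.0276) or in separate fits (0.0113). The highest mean stood at ZT6 in WT and ZT10 in FANKO mice. The test of the difference of rhythms gave an adjusted p of 0.0212 (edgeR), which did not pass. Without FANKO BAT ZT6 replicate 1, where *Ppargc1a* had 21.8 CPM and *Dio2* 13.8 CPM, it gave 0.00694, and without FANKO BAT ZT10 replicate 1 it gave 0.0071. The former library was among those rich in muscle markers, and without those 7 libraries *Ppargc1a*, difference of rhythms, had an adjusted p of 0.0211, while both genes kept a rhythm in BAT of both genotypes.

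No gene of the 10 passed the test of a difference of rhythms in BAT, where 2.76% of all genes did, or in eWAT, where 1.15% did (edgeR). In eWAT DESeq2 called 1 gene and limma-voom 0, in BAT both called 0, and at an unadjusted p under 0.05 there was 1 gene in each depot. In WT eWAT *Dio2* and *Elovl3* passed the rhythm test (9.38% of all genes). In FANKO eWAT none of the 10 did (6.77% of all genes), nor did any by DESeq2, limma-voom or at an unadjusted p under 0.05. *Zic1* and *Lhx8* had too few counts in eWAT to pass any of these tests. *Dio2* in WT eWAT rose from means of 0.681 ± 0.350 CPM at ZT6 and 0.671 ± 0.255 at ZT10 to 3.42 ± 2.17 at ZT18 and 3.80 ± 2.45 at ZT22 (SD, n = 4 each). The time points with its highest means in eWAT were thus those with its lowest means in BAT. *Elovl3* in WT eWAT had 0.853 ± 0.772, 0.262 ± 0.119, 1.66 ± 0.682 and 2.41 ± 0.814 CPM at the same 4 time points. The adjusted p of the rhythm was 0.00452 for *Dio2* and 0.00305 for *Elovl3* (edgeR). That of *Dio2* no longer passed without WT eWAT ZT6 replicate 2 (0.0108), ZT6 replicate 4 (0.0104), ZT10 replicate 1 (0.0117) or ZT22 replicate 3 (0.0183), and limma-voom gave 0.179 and 0.0354 for the 2 genes. With 1 replicate number of every group left out at a time, each of the 2 genes passed in 1 of 4 fits. *Ucp1* did not pass in any of the 4 combinations, with adjusted p from 0.384 to 0.998 (edgeR). Its mean in WT BAT was 5839 ± 1126 CPM at ZT10 and 3466 ± 1778 CPM at ZT18 (SD, n = 4 each). In FANKO eWAT *Ucp1* had 0.338 ± 0.260, 2.43 ± 3.11, 0.336 ± 0.399 and 2.40 ± 0.734 CPM at ZT6, ZT10, ZT18 and ZT22. The highest ZT10 library had 7.10 CPM. All ZT22 libraries lay above all of ZT6 and ZT18. *Ppargc1a* in WT eWAT also alternated, at 8.74 ± 1.79, 5.32 ± 0.575, 8.35 ± 1.33 and 6.25 ± 1.51 CPM. A cosine and sine of 24 h cannot follow such alternation, so the rhythm test could not decide on it.

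**Figure D3:**
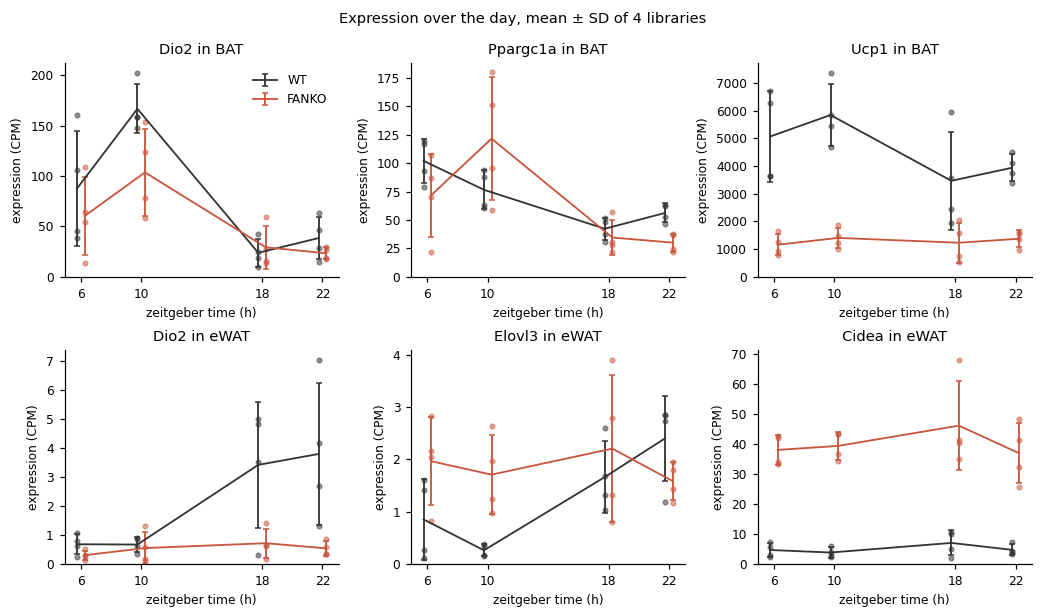
CPM (y axis) against zeitgeber time in hours (x axis) for 3 genes in BAT (top) and 3 in eWAT (bottom), in WT (black) and FANKO mice (red), with single libraries as dots and mean ± SD of 4 libraries as lines. *Dio2* is highest at ZT10 in BAT of both genotypes and at ZT22 in WT eWAT, while *Cidea* in eWAT is higher in FANKO mice at all 4 time points.

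Taken at each time point alone, with 4 libraries per genotype, the number of the 10 genes that differed in BAT was 5 at ZT6 (48.2% of all genes did), 5 at ZT10 (45.7%), 4 at ZT18 (44.0%) and 6 at ZT22 (45.3%), all of them lower in FANKO mice. *Ucp1*, *Cidea*, *Prdm16* and *Ebf2* passed at all 4 time points. *Otop1* passed at 3 of them and had a log2 difference of -0.71 ± 0.24 at ZT18 (adjusted p = 0.0111, edgeR). *Ppargc1a* passed at ZT22 with -0.90 ± 0.28 (adjusted p = 0.00496, edgeR) and had 0.66 ± 0.27 at ZT10 (adjusted p = 0.0324). In eWAT, where *Zic1* and *Lhx8* were too low to pass, 3 genes differed at ZT6 (27.0% of all genes), 3 at ZT10 (24.5%), 3 at ZT18 (13.6%) and 4 at ZT22 (20.6%). *Cidea* and *Otop1* were higher and *Ebf2* lower at each of the 4, and *Dio2* was lower at ZT22, by -2.85 ± 0.85 log2 (adjusted p = 0.00784, edgeR).

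The promoters of *Ucp1*, *Dio2* and *Ppargc1a*, which noradrenaline is known to induce, are shown because both genes with a daily rhythm in BAT are among them. The set of RefSeq promoters searched here (GRCm38.p6) held entries for 7 of the 10 genes. None was matched for *Cidea*, *Ebf2* or *Elovl3*, so *Elovl3*, which brown fat induces in the cold, could not be searched. Each sequence is the 250 bases before the gene start, read along the gene, with matches to the half-sites TGACG (bound by cAMP-responsive factors) and AGGTCA (bound by nuclear receptors) on either strand in capitals. *Ucp1* lies at chr8:83290098-83290347 on the forward strand, *Dio2* at chr12:90739039-90739288 and *Ppargc1a* at chr5:51567726-51567975 on the reverse strand.
Ucp1: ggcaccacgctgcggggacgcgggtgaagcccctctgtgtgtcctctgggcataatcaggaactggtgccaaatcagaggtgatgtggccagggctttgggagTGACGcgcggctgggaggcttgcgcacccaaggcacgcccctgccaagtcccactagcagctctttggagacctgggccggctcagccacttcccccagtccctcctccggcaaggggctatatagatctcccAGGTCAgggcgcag
Dio2: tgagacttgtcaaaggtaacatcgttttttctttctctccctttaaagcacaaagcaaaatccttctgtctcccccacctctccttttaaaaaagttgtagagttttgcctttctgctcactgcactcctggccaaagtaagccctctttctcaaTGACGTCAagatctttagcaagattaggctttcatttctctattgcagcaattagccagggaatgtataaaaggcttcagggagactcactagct
Ppargc1a: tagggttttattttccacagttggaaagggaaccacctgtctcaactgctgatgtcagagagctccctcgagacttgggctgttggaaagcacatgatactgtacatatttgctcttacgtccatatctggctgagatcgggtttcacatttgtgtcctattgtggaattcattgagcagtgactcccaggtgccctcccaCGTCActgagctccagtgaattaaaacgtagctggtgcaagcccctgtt

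TGACG was present in these 3 of the 7 promoters and in 17.8% of all 32851 promoters of the set over the same window. In *Dio2* the forward match (-95 to -91 from the start) and the reverse match (-92 to -88) overlapped by 2 bases. *Ppargc1a* had 1 match at -49 to -45 on the reverse strand and *Ucp1* 1 at -147 to -143. AGGTCA was present in 1 of the 7, *Ucp1*, and in 14% of all promoters, the E-box CACGTG in 1, *Zic1*, and in 6.02%, and the EBF core CCCNNGGG in 0 of the 7 and in 11.8%. These are matches of letters only. The start of *Dio2* in RefSeq lies upstream of the start in the GENCODE annotation used for the coordinates of the genes. That of *Otop1* lies downstream, so its window (chr5:38277154-38277403) falls inside the GENCODE gene, which starts at 38275972 on the forward strand. The windows of *Zic1* and *Lhx8* overlap their GENCODE genes in part. All of these windows are counted among the 7.

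Over the 16 group means of log2 CPM, the gene closest to *Dio2* was *Ppargc1a* (Pearson's r = 0.967), and *Dio2* came second for *Ppargc1a*, after *Cep85* (0.971 for *Cep85*). The closest to *Cidea* was *Cpt1b* (0.996), which brings fatty acids into mitochondria, to *Otop1* *Pla2g7* (0.994), to *Prdm16* *Pank1* (0.994), to *Zic1* and *Lhx8* *Acsl5* (0.989 and 0.987), to *Ebf2* *Tbc1d32* (0.987) and to *Elovl3* *Polb* (0.986). The 16 means share the contrast between the depots, which dominates these values.

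Of 20 further genes listed for brown adipocytes, 19 were tested, and 17 fell and 2 rose in FANKO BAT, while 12 rose and 3 fell in FANKO eWAT. For this list and those that follow, the shares over all genes tested were 33.9% lower and 33.1% higher in BAT and 22.8% lower and 27.6% higher in eWAT. The median log2 difference was -1.56 in BAT and 0.82 in eWAT. *Cox8b*, a subunit of cytochrome oxidase, fell from 866 ± 94.7 to 119 ± 42.2 CPM in BAT (SD, n = 16) and rose from 6.38 ± 2.61 to 14.7 ± 4.98 CPM in eWAT. *Fabp3*, a fatty acid carrier, fell from 243 ± 66.5 to 26.9 ± 11.2 CPM in BAT, a log2 difference of -3.17 ± 0.15. *Kcnk3*, a potassium channel, fell from 257 ± 43.5 to 184 ± 26.4 CPM in BAT and rose from 15.5 ± 4.32 to 88.8 ± 14.6 CPM in eWAT, the largest rise of the list there at 2.52 ± 0.10 log2 (adjusted p = 6.69e-30, edgeR). The 2 that rose in BAT were *Epsti1*, which interferon induces (1.28 ± 0.600 to 52.4 ± 8.41 CPM), and *Bmp8b* (4.30 log2), the latter named after its value was seen.

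**Figure D4:**
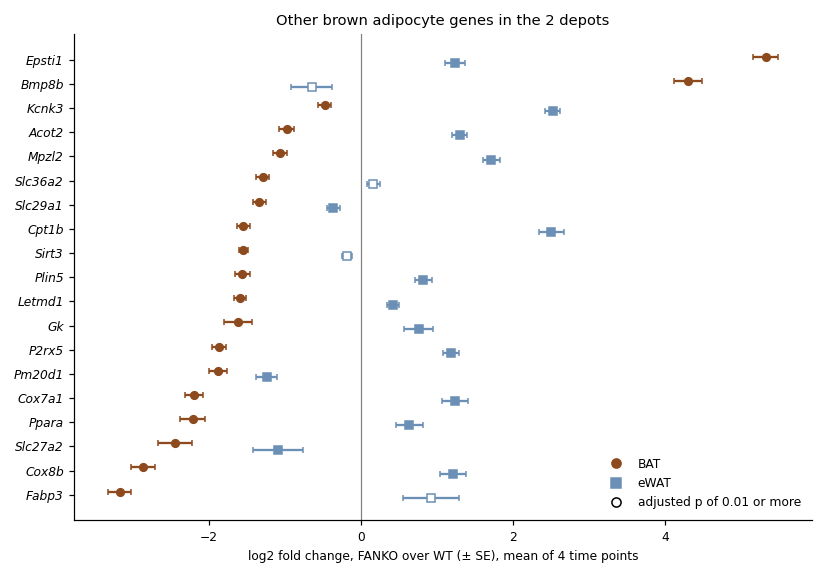
Log2 fold change of FANKO over WT mice (x axis, ± SE) for the 19 other brown adipocyte genes tested, in BAT (brown circles) and eWAT (blue squares), filled where the adjusted p was below 0.01. In BAT 17 of the 19 lie below 0, and in eWAT 12 are higher with an adjusted p below 0.01.

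Of 27 transcriptional regulators of brown fat, 18 fell and 6 rose in FANKO BAT, with a median of -0.63 log2, and 6 fell and 8 rose in FANKO eWAT, with a median of -0.01. The eWAT counts were near the shares over all genes (22.8% lower, 27.6% higher). *Ppargc1b*, the relative of *Ppargc1a*, fell from 99.6 ± 24.6 to 24.4 ± 9.17 CPM in BAT (SD, n = 16) and rose from 9.04 ± 2.78 to 13.2 ± 2.75 CPM in eWAT. *Klf15* fell from 41.8 ± 27.7 to 5.64 ± 1.62 CPM in BAT, whereas *Nr4a1*, an early gene that cAMP induces, rose from 1.70 ± 0.843 to 16.5 ± 12.6 CPM and *Zfp516*, which acts on the *Ucp1* promoter, from 25.2 ± 4.10 to 39.5 ± 6.13 CPM.

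Of 12 genes of adrenergic signaling, 10 fell and 0 rose in FANKO BAT, with a median of -1.08 log2, while 4 fell and 4 rose in eWAT. Over all genes 33.9% were lower in BAT, and the eWAT counts were near the shares over all genes. *Adrb3*, the main β-adrenergic receptor of fat, fell from 146 ± 58.2 to 67.6 ± 11.5 CPM in BAT and from 361 ± 45.8 to 229 ± 64.7 CPM in eWAT (SD, n = 16). *Prkar2b*, a regulatory subunit of protein kinase A, fell from 1843 ± 379 to 436 ± 98.5 CPM in BAT, and *Adcy3*, an adenylyl cyclase, from 238 ± 73.1 to 64.9 ± 15.7 CPM. Of 10 genes tested for heat production without UCP1, 2 fell and 4 rose in BAT, and 3 fell and 3 rose in eWAT, counts near the shares over all genes (33.1% higher in BAT) except for the fewer that fell in BAT. *Gatm* and *Alpl* of the creatine cycle rose in BAT, by 1.76 ± 0.13 and 1.87 ± 0.10 log2, and *Atp2a2*, the calcium pump, fell by -0.62 ± 0.05.

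Of 18 tested relatives of the 10 genes, 8 fell and 2 rose in BAT and 3 fell and 7 rose in eWAT, where over all genes 33.9% fell and 33.1% rose in BAT and 22.8% and 27.6% in eWAT. *Ucp2* rose in BAT from 14.7 ± 2.43 to 88.5 ± 24 CPM (SD, n = 16), opposite to *Ucp1*, beside the rise of the macrophage markers given above, whose part in it was not tested. *Ebf3* fell from 81.3 ± 13 to 37.5 ± 7.45 CPM in BAT, as *Ebf2* did. Of 8 tested genes that mark white adipocytes, 5 fell and 1 rose in FANKO eWAT, where their summed level went from a median of 3131 to 1010 CPM. *Retn*, the hormone resistin, fell there from 909 ± 166 to 385 ± 81.6 CPM.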

How the data were processed

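The authors removed ribosomal RNA, made strand-specific libraries, sequenced paired ends, aligned them with STAR 2.5.3a to GRCm38.p5 and deposited whole-number counts per gene from featureCounts 1.5.3 (versions from the submitters' processing notes), without normalization or pooling of replicates. How featureCounts treated strand and reads with several matches is not given in the sources used here. The deposited counts entered edgeR 4.0.16 in R 4.3.3 without change. filterByExpr on the 16 groups (minimum count 10) left 20249 genes. Libraries were scaled by TMM, and 1 quasi-likelihood model that gave each depot and genotype its mean level and 24 h cosine and sine terms was fitted to all 64 libraries. Time points were compared in a second model with 1 mean per group. P-values were adjusted by Benjamini-Hochberg over all genes tested, with a threshold of 0.01. Every adjusted p is from edgeR unless limma-voom (limma 3.58.1) or DESeq2 1.42.0 is named. Standard errors are the log2 fold change over the root of the F statistic. Symbols, exon lengths and positions came from GENCODE M21 on GRCm38. The fit was tested on simulated counts.

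Counts per library had a median of 15826651, so 3 counts, taken as the floor, came to between 0.105 and 0.502 CPM. The files do not say whether a BAT and an eWAT library came from the same mouse. The members, lists and examples were chosen with earlier results of these data known. Beside the 10 members, the text names up to 4 genes of each list, the 2 highest and 2 lowest in BAT among those that passed and averaged 1 or more in log2 CPM, and Nampt as a check of the labels. Plin1, Tmem26, Tnfrsf9 and Bmp8b were named outside this rule, as were the genes closest in pattern to the members. Alternatives were RLE and library size scaling, DESeq2, limma-voom, no filter, a filter of 1 CPM in 4 libraries, separate fits for each depot, time point as a factor, a replicate block, each replicate number and each library left out, an FDR of 0.05 and a prior count of 0.5. TMM without mitochondrial genes, scaling to adipocyte markers and removal of the 7 BAT libraries with muscle markers above 200 CPM were chosen after seeing the data. The gene closest in pattern to Ucp1 is not reported here.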

Additional observations from a re-analysis of the deposited data

Results flagged for a closer look

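In 7 of 144 groups of 4 libraries, 1 library stood apart from the other 3 by Dixon's test, where chance gives about 1 in 20. *Ucp1* had 2.41 CPM in WT eWAT ZT6 replicate 3, with 0.119 CPM in the nearest library, and 7.1 CPM in FANKO eWAT ZT10 replicate 4, with 0.965 CPM in the nearest. WT eWAT ZT18 replicate 4 was lowest for both *Dio2* (0.316 CPM, nearest 3.53) and *Otop1* (0.14 CPM, nearest 1.76). *Ppargc1a* had 6.18 CPM in WT eWAT ZT10 replicate 2 (nearest 5.07), *Elovl3* 1.19 CPM in WT eWAT ZT22 replicate 4 (nearest 2.74) and *Lhx8* 0.502 CPM in WT BAT ZT22 replicate 3 (nearest 2.1).

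The genotype difference in BAT differed from that in eWAT, by the interaction term of the edgeR model, for *Ucp1* (-3.1 log2), *Cidea* (-4.37), *Prdm16* (-1.03), *Ebf2* (-1.22) and *Otop1* (-2.92).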

How the results depend on the processing

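By library size, 3 of the 10 genes were higher in FANKO BAT, 3 differed in BAT at ZT6, 3 at ZT10 and 3 at ZT22, and the log2 differences of *Dio2* (0.11) and *Ppargc1a* (0.32) in BAT and of *Prdm16* in eWAT (-0.13) changed sign. By adipocyte markers, 3 were lower and 4 higher in FANKO BAT, with *Dio2* at 0.29 and *Ppargc1a* at 0.51 log2. limma-voom left 1 gene lower in eWAT and 0 with a rhythm in WT eWAT. DESeq2 and an FDR of 0.05 each gave 4 higher and 3 lower in eWAT. DESeq2 called 1 difference of rhythms in eWAT, and an FDR of 0.05 gave 1 in BAT and 5 genes in eWAT at ZT10. Separate fits for each depot left 1 rhythm in WT BAT and 1 in FANKO BAT. The cause of these changes was not tested.

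Leaving out 1 replicate number of every group gave 0 to 1 genes higher in BAT, 1 to 2 lower in eWAT, 1 to 2 rhythms in WT BAT, 1 to 2 in FANKO BAT, 0 to 4 in WT eWAT, 3 to 6 genes in BAT at ZT22 and 1 to 3 in eWAT at ZT22, and *Elovl3* in BAT ran from -0.027 to 0.24 log2. Leaving out each library, run for the genotype differences, the rhythms of WT eWAT and the difference of rhythms in BAT, gave 2 to 4 genes higher in eWAT, 1 to 3 rhythms in WT eWAT and 0 to 1 differences of rhythms in BAT. A replicate block changed no call (*Ucp1* in BAT, -1.78 log2). The numbers were not taken as pairs, because the labels tie them to no mouse and deviations of same-numbered BAT and eWAT libraries correlated at -0.133 to 0.306, with 10 of 32 pairs over 0.1. Of these, 18 of 32 libraries matched their own number best, where chance gives 8. For WT and FANKO libraries of the same depot, time point and number, which cannot come from the same mouse, it was 15 of 32. Their median correlation was 0.0517, against 0.0527 for BAT and eWAT. The matches therefore cannot decide whether same-numbered BAT and eWAT libraries share a mouse.

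Genes under about 1 CPM, as *Ucp1*, *Dio2*, *Otop1* and *Elovl3* in WT eWAT, rest on few counts per library. Replicates are labelled as separate samples, and p-values measure the spread between them.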
